A study of Mus musculus with 22 samples.

Results

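The change in gene expression over the first 2 days of adipocyte induction was compared between C3H 10T1/2 cells with wild-type DNMT3A (WT) and cells with the DNMT3A mutant W330R. The C3H 10T1/2 line comes from mouse mesenchyme and forms fat cells when induced. The libraries were chosen by their labels as WT undifferentiated, WT day 2, W330R undifferentiated and W330R day 2, with 2 libraries each, which gave 8 of the 22 libraries of the series. The other libraries hold days 4 and 6 of both genotypes and days 2, 4 and 6 of the double mutant W330R-R181E. Cells at day 2 had been kept for 2 days with troglitazone at 5 µM, insulin at 5 µg/mL, dexamethasone at 1 µM and isobutylmethylxanthine at 0.5 mM in medium with 10% serum, and the undifferentiated cells are labelled as untreated. Each line expresses a variant of the DNMT3A1 isoform, and the labels do not say from which promoter, or whether a genotype is 1 clone. They also do not say whether replicates were separate cultures, so that p-values measure only the spread between these libraries, which may be technical. The columns of the undifferentiated libraries carry another form of name than those of days 2 to 6. A batch difference shared by both genotypes cancels in the comparison of responses, whereas a batch difference that differs between genotypes cannot be told apart from it.

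DNMT3A is a de novo DNA methyltransferase, and W330R changes its PWWP domain, which binds methylated histone tails and helps to place the enzyme on chromatin. In the induction of adipocytes, dexamethasone activates the glucocorticoid receptor and isobutylmethylxanthine raises cAMP. These signals turn on the early factors Cebpb and Cebpd, which act ahead of Pparg and Cebpa, the factors that drive genes of lipid storage. Cells leave the cell cycle and lose much of their fibroblast matrix program on the way, and BMP, TGF-β and WNT proteins made by the cells themselves push the choice of fate in opposite directions.

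The depth ran from 8895715 to 26467144 counted reads, so that 3 reads, taken as the smallest signal, amounted to 0.114 to 0.347 CPM, the count scaled to the library total. Replicates of the undifferentiated pairs differed by 3.1 and 3.4 times the variance of pure counting noise, whereas the day 2 pairs differed by 74.1 times in WT and 51.6 times in W330R. All 14 mesenchymal markers were counted, with sums of 23180 to 25780 CPM before induction and 3798 to 5038 CPM on day 2. The summed level of 12 adipocyte markers went from 78.1 to 86.9 CPM in the undifferentiated libraries to 4376 and 5208 CPM in WT and to 3549 and 2877 CPM in W330R. Of the markers of other cells, Tyrobp of macrophages, Cdh5, Emcn and Cldn5 of endothelium and Epcam, Krt5 and Grhl2 of epithelium stayed at or under 3 reads in all 8 libraries. Sums of the macrophage list were at most 15.5 CPM, and those of the skeletal muscle list at most 0.642 CPM. Epithelial markers summed to 3.08 and 2.85 CPM in undifferentiated WT and 5.23 and 7.06 CPM in undifferentiated W330R. On day 2 they summed to at most 0.604 CPM. Of these markers, Cdh1 had 23 and 48 reads in undifferentiated WT and 45 and 29 reads in undifferentiated W330R. Endothelial markers summed to 41.1 and 43.4 CPM in undifferentiated WT and 19.1 and 28.6 CPM in undifferentiated W330R. Tek, the receptor of angiopoietins, was the only member called: it fell from 16.6 and 18.5 to 0.453 and 0.0984 CPM in WT and from 3.27 and 4.74 to 1.18 and 0.495 CPM in W330R, and the part of other cells in the results below was not tested.

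Dnmt3a itself was counted at 346 and 344 CPM in undifferentiated WT and 326 and 316 CPM in undifferentiated W330R. On day 2 it stood at 175 and 322 CPM in WT and 88.4 and 142 CPM in W330R, a fall that was called in W330R (-1.48 on the log2 scale) and not in WT (-0.47). The difference between the responses was not called (-1.0, SE 0.562, adjusted p = 0.46). These counts do not tell the variant from the cell's own transcript. Dnmt1, the maintenance enzyme, fell in both genotypes, from 169 and 165 to 42.4 and 33.4 CPM in WT and from 163 and 163 to 39.9 and 48.1 CPM in W330R. Dnmt3b stayed between 3.03 and 4.82 CPM, and Dnmt3l had at most 1 read in any of the 8 libraries.

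The induction moved a large share of the genes in both genotypes. Of 14520 genes tested, 7384 changed in WT (50.9%), 3843 upwards (26.5%) and 3541 downwards (24.4%), and 6993 changed in W330R (48.2%), 3647 upwards (25.1%) and 3346 downwards (23.0%). The response differed between the genotypes for 271 genes, 1.87% of those tested (edgeR quasi-likelihood test of the interaction, Benjamini-Hochberg adjusted p under 0.05). For 176 of them (1.21% of all genes) the W330R response lay above the WT response, and for 95 (0.654%) it lay below. An unadjusted p under 0.05 in this test was reached by 2075 of the 14520 genes. Differences of responses are given below on the log2 scale, W330R minus WT, with their standard error (SE). Their absolute size over the 271 genes was at least 0.63, with a median of 1.96. For all 271 the change between any undifferentiated and any day 2 library in W330R lay outside the range of changes in WT, which was so for 36.0% of all genes tested. These counts depend on single libraries: 75 genes were called without WT undifferentiated replicate 1 and 75 without replicate 2, 81 and 84 without W330R undifferentiated replicates 1 and 2, 263 and 111 without WT day 2 replicates 1 and 2, and 166 and 186 without W330R day 2 replicates 1 and 2. The calls of 56 genes held whichever library was left out, and those of 52 also held under the other fits that tested them.

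**Figure D1:**
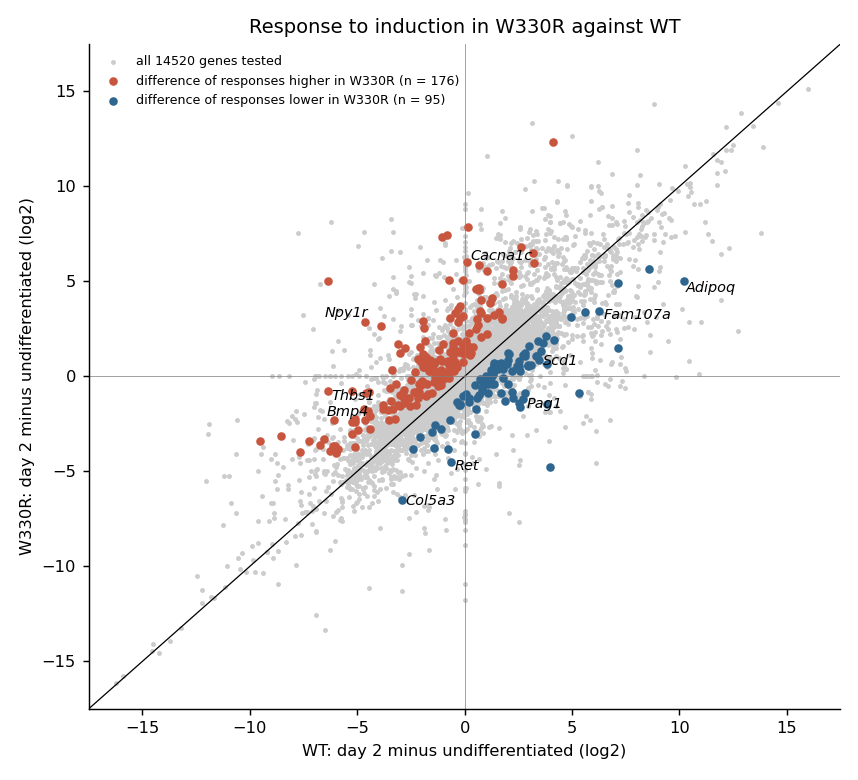
Response to induction (day 2 minus undifferentiated, log2) in WT on the x axis and in W330R on the y axis, with 1 point per gene tested, and the diagonal where both responses are equal. Red points are the 176 genes whose response was higher in W330R and blue points the 95 whose response was lower.

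The called responses behind these differences were of several kinds. Among the 176 genes on the higher side, 51 fell in both genotypes, 41 fell in WT and were not called in W330R, 18 rose in both and 42 rose in W330R and were not called in WT. Among the 95 on the lower side, 30 rose in both, 31 rose in WT and were not called in W330R, 8 fell in both and 12 fell in W330R and were not called in WT. The remaining 38 genes moved in opposite directions, 24 falling in WT and rising in W330R and 14 rising in WT and falling in W330R.

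A difference between responses is made of 2 parts, the genotype difference before induction and that on day 2. Before induction W330R and WT differed for 254 genes (1.75%), 115 higher (0.792%) and 139 lower (0.957%) in W330R, and on day 2 for 445 genes (3.06%), 273 higher (1.88%) and 172 lower (1.18%). Of the 271 genes, 119 were called between genotypes on day 2 only, 83 before induction only, 17 at both stages and 52 at neither. The 83 genes with a called genotype difference only before induction were 30.6% of them. In that class the median genotype difference of the 51 genes on the higher side was -1.97 before induction and 0.41 on day 2, and that of the 32 on the lower side was 1.59 and -0.42. For the 119 genes called on day 2 only, the medians went from -0.46 to 1.43 in the 84 on the higher side and from 0.49 to -1.01 in the 35 on the lower side. These classes rest on a spread that all stages share. With the 4 libraries of a stage fitted alone, 4194 of 11891 genes were called before induction and 0 of 12874 on day 2. In the day 2 fit 1579 genes had an unadjusted p under 0.05. Of the 271 genes, 219 were called before induction in these fits, among them 74 of the 119 classed as called on day 2 only. An unadjusted p under 0.05 on day 2 was found for 177 of the 271.

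**Figure D2:**
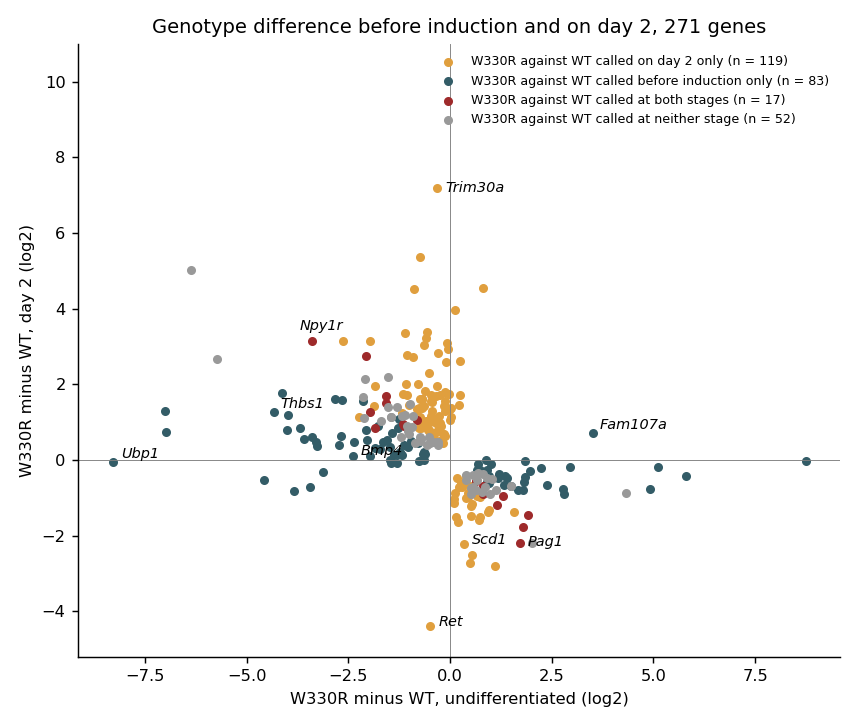
Genotype difference (W330R minus WT, log2) of the 271 genes before induction on the x axis and on day 2 on the y axis, with 1 point per gene, coloured by the stage at which W330R and WT were called apart. Thbs1 and Fam107a, called before induction only, lie further from 0 on the x axis than on the y axis, and Trim30a and Ret, called on day 2 only, lie further from 0 on the y axis.

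Genotype differences before induction and on day 2 had the same sign about as often as opposite signs. Across all genes tested, the sign of W330R minus WT was the same before induction and on day 2 for 50.6%, with a correlation of -0.01 across genes. Of the 254 genes called before induction, 121 had the same sign on day 2, and of 34 genes called at both stages 17 had the same sign. Day 2 and day 4, which also share no library, had the same sign for 74.5% of all genes (correlation 0.46) and for 432 of the 445 genes called on day 2. Genes are not independent replicates, and the undifferentiated libraries also differ from the later ones in their column names, so that stage and a possible batch cannot be told apart here.

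Armcx4, Pmepa1, Nxn and Pag1 were among the genes with the lowest p-values, and in each the genotypes changed order. Pmepa1, an inhibitor of TGF-β signalling that is itself a TGF-β target, was at 103 and 104 CPM in undifferentiated WT and 35.1 and 34.1 CPM in undifferentiated W330R, and on day 2 at 24.2 and 21.6 CPM in WT and 78 and 52.8 CPM in W330R. It fell in WT and rose in W330R without overlap at either stage (difference of responses 3.09, SE 0.275, adjusted p = 0.00014). Nxn, the redox regulator nucleoredoxin, crossed in the same way, from 46.1 and 48.8 to 19.3 and 24.1 CPM in WT and from 22.4 and 20.8 to 39.8 and 41.6 CPM in W330R (2.04, SE 0.199, adjusted p = 0.00032). Pag1, a membrane adaptor that recruits the kinase Csk, crossed the other way, rising from 12.3 and 12.3 to 47.1 and 116 CPM in WT and falling from 40.3 and 40.5 to 15.9 and 20.02 CPM in W330R (-3.89, SE 0.447, adjusted p = 0.0014). Armcx4, of a family linked to mitochondria, rose in both genotypes, to 64.9 and 59.7 CPM in WT and 74.4 and 90.8 CPM in W330R. It started at 17.2 and 19.6 CPM in WT and 3.1 and 2.43 CPM in W330R, so that its response was larger in W330R (3.12, SE 0.261, adjusted p = 0.00013). The calls of these 4 genes held whichever library was left out.

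**Figure D3:**
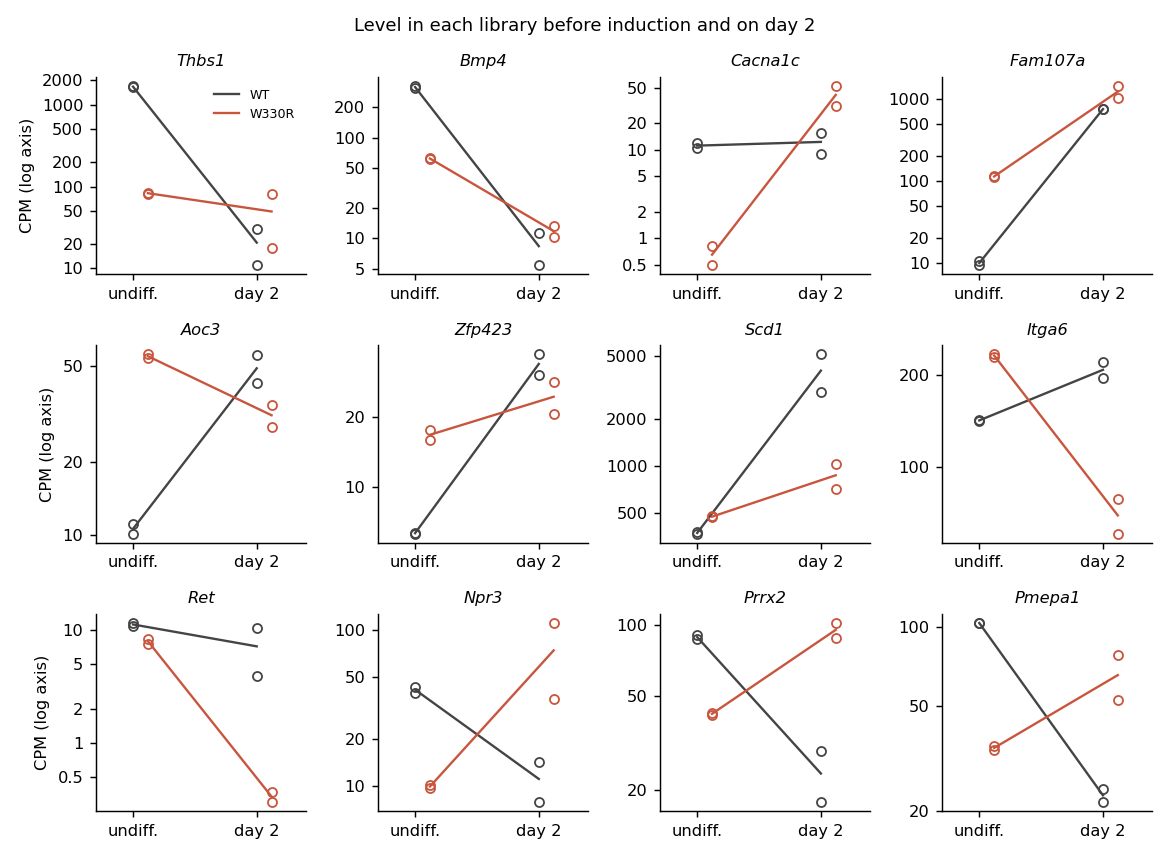
Level in CPM (log axis, a separate scale per gene) of 12 genes in undifferentiated cells and on day 2, with 1 circle per library and lines joining the means of WT (grey) and W330R (red). Thbs1, Bmp4 and Fam107a start apart and lie closer on day 2, Scd1 and Ret separate on day 2, and Aoc3, Cacna1c, Itga6, Npr3, Pmepa1, Prrx2 and Zfp423 change order. The means of Thbs1, Bmp4 and Scd1 change order as well.

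Among BMP, TGF-β and WNT ligands and their antagonists, 4 of 31 tested members were called, all on the higher side (Bmp4, Grem1, Smad7 and Wnt5a), with a median difference over the list of 0.67 beside 0.01 over all genes tested. The median ranged from 0.12 without WT undifferentiated replicate 2 to 1.10 without WT day 2 replicate 2. Bmp4, a ligand that commits C3H 10T1/2 cells to the adipocyte lineage, was at 324 and 310.1 CPM in undifferentiated WT and at 60.7 and 63 CPM in undifferentiated W330R. On day 2 its level was 5.36 and 11.3 CPM in WT and 13.2 and 10.3 CPM in W330R, so that the genotypes overlapped once both had fallen (difference of responses 2.83, SE 0.523, adjusted p = 0.015). Grem1, which binds and blocks BMP proteins, also started higher in WT, with 136 and 144 CPM against 29.6 and 34.2 CPM before induction and 8 and 3.84 CPM against 24.1 and 10.7 CPM on day 2 (3.7, SE 0.661, adjusted p = 0.012). Its fall was called in WT and not in W330R, and its libraries did not overlap at either stage. Smad7, an intracellular inhibitor of the pathway, fell in WT from 33 and 31.8 to 8.68 and 10.5 CPM and was at 13 and 10.8 and then 9.36 and 8.72 CPM in W330R (1.36, SE 0.287, adjusted p = 0.027). Tgfb3, a TGF-β ligand counted with the inhibitors of adipogenesis, fell in both, from 177 and 178 to 14.1 and 11.1 CPM in WT and from 59.9 and 53.9 to 18.3 and 16.3 CPM in W330R (2.1, SE 0.358, adjusted p = 0.0088). Wnt5a, a non-canonical WNT ligand, differed in kind: it rose in both genotypes, to 18.3 and 16.2 CPM in WT and 35.3 and 39.9 CPM in W330R, from 6.34 and 6.99 CPM in WT and 3.67 and 4.28 CPM in W330R (1.88, SE 0.345, adjusted p = 0.014). With the 7 members of the list that had a condition at or under 3 reads set to that floor, its median was 0.24. Tgfb3 was called in 7 of the 8 fits that left out a library, Bmp4, Grem1 and Wnt5a in 4 each and Smad7 in 0.

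Of 19 tested inhibitors of adipogenesis, 4 were called, all on the higher side (Hes1, Wnt5a, Twist2 and Tgfb3), and the median of the list was 0.35, or 0.18 without W330R day 2 replicate 1. Twist2, a basic helix-loop-helix repressor, rose in both genotypes, from 9.86 and 8.02 to 25.9 and 33.9 CPM in WT and from 6.04 and 6.48 to 51.2 and 52.3 CPM in W330R (1.3, SE 0.274, adjusted p = 0.027). Hes1, the repressor downstream of Notch, fell from 59.2 and 58.9 to 26.4 and 28.2 CPM in WT and was at 25.2 and 23.1 CPM and then 31.8 and 29.4 CPM in W330R (1.45, SE 0.335, adjusted p = 0.042). Its genotypes were called apart before induction and not on day 2, where W330R lay slightly above WT without overlap. Among 73 developmental transcription factors, Prrx2 and Twist2 were called, both on the higher side, and the list had a median of 0.40. Prrx2, a homeobox factor of limb and facial mesenchyme, fell in WT from 90.3 and 87 to 17.8 and 29.1 CPM and rose in W330R from 42.4 and 41.5 to 88.2 and 102 CPM (3.1, SE 0.46, adjusted p = 0.0039). Zfp57, which keeps methylation at imprinted regions, was at 9.86 and 12.2 CPM in undifferentiated WT and 9.29 and 6.1 CPM on day 2, and rose in W330R from 7.19 and 8.33 to 43 and 32.7 CPM (2.83, SE 0.348, adjusted p = 0.0017). Hey2, another Notch target, went the other way, rising in WT from 2.02 and 2.27 to 4.38 and 11.6 CPM and falling in W330R from 3.27 and 2.78 to 1.5 and 0.952 CPM (-3.21, SE 0.657, adjusted p = 0.024). The calls of Prrx2 and Zfp57 held whichever library was left out, whereas Hes1 was called in 0 of the 8 such fits, Twist2 in 1 and Hey2 in 2. The HOX clusters had 0 of 14 tested members called, with 1 at an unadjusted p under 0.05 and 0 in DESeq2.

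The genes named for the largest differences included several at the cell surface. Npr3, the clearance receptor of natriuretic peptides, fell in WT from 39.8 and 43.5 to 14.3 and 7.92 CPM and rose in W330R from 9.72 and 10.2 to 112 and 36.5 CPM (4.82, SE 0.633, adjusted p = 0.0021). Npy1r, a receptor of neuropeptide Y, fell in WT from 15.4 and 17.2 to 0.755 and 1.38 CPM and rose in W330R from 1.39 and 1.74 to 12 and 7.38 CPM (6.54, SE 0.853, adjusted p = 0.0021). Cacna1c, the pore subunit of an L-type calcium channel, was at 10.4 and 12 CPM and then 15.6 and 9 CPM in WT, with no called response, and rose in W330R from 0.49 and 0.81 to 52.9 and 31.2 CPM (5.91, SE 0.788, adjusted p = 0.0021). In all 3 genes WT stood above W330R before induction and the genotypes had changed order by day 2, although the day 2 difference of Cacna1c was not called (1.77 on the log2 scale). Abcg2, a drug and urate exporter, was between 20.8 and 29.5 CPM in WT at both stages, and in W330R it rose from 23.2 and 25.3 to 78.6 and 70.3 CPM (1.7, SE 0.234, adjusted p = 0.0026).

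Other surface proteins were lower in W330R on day 2. Itga6, the integrin α6 subunit that binds laminin, rose in WT from 143 and 141 to 195 and 220.3 CPM and fell in W330R from 233 and 229.5 to 78.3 and 60.5 CPM (-2.29, SE 0.294, adjusted p = 0.0021). Ret, the receptor tyrosine kinase of GDNF ligands, was at 11.5 and 10.7 CPM and then 3.93 and 10.3 CPM in WT, and fell in W330R from 7.51 and 8.33 to 0.374 and 0.304 CPM (-3.9, SE 0.752, adjusted p = 0.018). Ceacam1, an adhesion protein, rose in WT from 17.1 and 15.8 to 76.6 and 112 CPM and was at 34.4 and 37 and then 21.9 and 5.29 CPM in W330R (-3.93, SE 0.915, adjusted p = 0.043). Of its sequences of 50 bases, 30.4% also occur in other genes, mainly Ceacam2, so that its reads may be split with that copy. The calls of Itga6, Npr3, Npy1r, Cacna1c and Abcg2 held whichever library was left out, whereas Ret and Ceacam1 were called in 1 of the 8 such fits each.

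Contractile genes fell in both genotypes. Of 23 tested contractile genes and targets of the serum response factor, 14 fell in WT and 13 in W330R, and 2 were called on the higher side, Thbs1 and Tpm2, with a list median of 0.78, or 0.43 without WT undifferentiated replicate 2 and 0.33 with low members at the floor of 3 reads. Thbs1, the matrix protein thrombospondin 1 that activates latent TGF-β, was at 1687 and 1635 CPM in undifferentiated WT and at 82.1 and 84 CPM in undifferentiated W330R. On day 2 it was at 30.5 and 10.9 CPM in WT and 81.7 and 17.6 CPM in W330R, where the libraries of the genotypes overlapped (5.59, SE 1.17, adjusted p = 0.026). Tpm2, a tropomyosin, started alike at 102 and 105 CPM in WT and 104 and 89.2 CPM in W330R and was at 5.21 and 4.03 CPM in WT and 34.4 and 20.7 CPM in W330R on day 2 (2.68, SE 0.537, adjusted p = 0.021). Both calls held in 2 of the 8 fits without a library.

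The extracellular matrix moved in both directions. Of 40 tested matrix genes, 24 fell in WT and 25 in W330R, and only Loxl1 on the higher side and Col5a3 and Col6a2 on the lower side were called, with a median of -0.24, which was near 0 (-0.004) without WT day 2 replicate 1. Col5a3, a chain of type V collagen, was at 38.5 and 38.9 CPM in undifferentiated WT and 133 and 134 CPM in undifferentiated W330R, and at 3.55 and 6.39 CPM and 1.39 and 1.56 CPM on day 2, so that the genotypes changed order while both fell (-3.55, SE 0.539, adjusted p = 0.0042). Its call held whichever library was left out. Col6a2, a chain of type VI collagen, rose in WT from 533 and 532 to 950.2 and 1341 CPM and was at 1011 and 973 CPM and then 677 and 852 CPM in W330R (-1.48, SE 0.289, adjusted p = 0.02). Loxl1, which cross-links elastin, fell in WT to 188 and 232 CPM and rose in W330R to 419.9 and 462 CPM (1.06, SE 0.227, adjusted p = 0.03). Among 20 matrix proteases, Plat, the tissue plasminogen activator, was the only one called, and the list median was 0.48, or 0.31 without WT day 2 replicate 2. It fell to 1.21 and 0.59 CPM in WT and to 6.36 and 4.34 CPM in W330R from 21.8 and 21.6 CPM in WT and 24.1 and 27.6 CPM in W330R (2.36, SE 0.491, adjusted p = 0.026). Apart from Col5a3, these calls held in 1 or 2 of the 8 fits without a library. The mesenchymal marker Col1a2 fell from 7922 and 7588 to 698 and 621 CPM in WT and from 6192 and 5995 to 1099 and 1130 CPM in W330R, a difference that was not called (1.1, SE 0.424, adjusted p = 0.23).

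The hormonal part of the cocktail was answered in both genotypes. Of 24 tested glucocorticoid response genes, 19 rose in WT and 17 in W330R, with medians of 2.66 and 2.65 on the log2 scale. The median of their differences of responses was nonetheless -0.77, with 6 of 24 members above 0, and it ranged from -0.82 to -0.45, the latter without WT day 2 replicate 2. Fkbp5, a chaperone partner of the glucocorticoid receptor, rose to 778 and 1226 CPM in WT and 773 and 838 CPM in W330R from 14.3 and 15.1 CPM in WT and 14.4 and 12.8 CPM in W330R (-0.20, SE 0.961, adjusted p = 0.98). The only member called was Fam107a (DESeq2 called 3 members, all lower), an actin-associated stress response gene, which stood at 10.6 and 9.26 CPM in undifferentiated WT and 112 and 116 CPM in undifferentiated W330R. It rose to 764 and 749 CPM in WT and 1030 and 1444 CPM in W330R, so that the genotypes were called apart before induction and not on day 2 (-2.81, SE 0.377, adjusted p = 0.0021). Of 17 cAMP response genes 0 were called, with 1 at an unadjusted p under 0.05 and 0 in DESeq2. Their medians were 1.01 in WT and 0.09 in W330R, and the median difference of -0.16 changed sign when libraries were left out (-0.54 to 0.16). Rgs2, a regulator of G protein signalling, rose to 790 and 1070 CPM in WT and 703 and 961 CPM in W330R.

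The early adipogenic factors were not called. Cebpb rose to 412 and 979 CPM in WT and 488 and 623 CPM in W330R (0.78, SE 0.528, adjusted p = 0.56), and Cebpd rose to 257 and 454 CPM and 325 and 489 CPM (0.50, SE 0.49, adjusted p = 0.72). Pparg was at 30.9 and 57.1 CPM in WT and 45.7 and 45.9 CPM in W330R on day 2, with no called response in either genotype. Cebpa rose from 15.5 and 18 to 77 and 134 CPM in WT and from 8.57 and 10.3 to 16.5 and 19.4 CPM in W330R. The day 2 libraries did not overlap and the genotype difference on day 2 was called (-2.56 on the log2 scale), but the difference of responses was not (-1.72, SE 0.457, adjusted p = 0.075). Zfp423, a factor that primes cells for the adipocyte fate, was the only 1 of 28 tested adipogenic factors called for its response: it rose in WT from 6.25 and 6.32 to 37.3 and 30.5 CPM and in W330R from a higher start of 17.6 and 15.8 to 20.7 and 28.2 CPM (-1.88, SE 0.245, adjusted p = 0.0021). Its call held whichever library was left out.

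Among genes of lipid synthesis, every called difference was on the lower side. Of 26 tested genes of fatty acid and triglyceride synthesis, 14 rose in WT and 8 in W330R, and 4 were called, all on the lower side (Scd1, Scd2, Dgat2 and Acsl1), with a median of -0.71. Scd1, the stearoyl-CoA desaturase of adipocytes and liver, was at 375 and 367 CPM in undifferentiated WT and 469.9 and 474 CPM in undifferentiated W330R. It rose to 2957 and 5158 CPM in WT and stood at 1029 and 709 CPM in W330R on day 2, where the response was not called (-2.57, SE 0.516, adjusted p = 0.021). Scd2, a second desaturase, was at 2146 and 2451 CPM on day 2 in WT after 1999 and 1977 CPM, and fell in W330R from 3160 and 3120 to 1218 and 1265 CPM (-1.55, SE 0.229, adjusted p = 0.0039). On day 2 both desaturases were lower in every W330R library than in either WT library. Acsl1, which activates long-chain fatty acids, started alike at 78.8 and 82.6 CPM in WT and 96.4 and 88.2 CPM in W330R and rose to 2278 and 2752 CPM in WT and 901 and 717 CPM in W330R (-1.83, SE 0.384, adjusted p = 0.026). Dgat2, which makes triglyceride, rose to 673 and 721 CPM in WT and 547 and 318 CPM in W330R from 15.4 and 13.7 CPM in WT and 41.3 and 41.4 CPM in W330R (-2.2, SE 0.432, adjusted p = 0.02), and the genotypes were called apart before induction and not on day 2. Scd2 was called whichever library was left out, Scd1 and Dgat2 in 2 of the 8 fits and Acsl1 in 1.

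Among 25 tested genes of lipid droplets and fatty acid handling, 19 rose in WT and 16 in W330R, and Acsl1 and G0s2 were called on the lower side, with a median of -0.64, or -0.43 without WT undifferentiated replicate 1. G0s2, an inhibitor of the triglyceride lipase Pnpla2, was at 11.2 and 10.9 CPM in undifferentiated WT and 42.7 and 36 CPM in undifferentiated W330R, and on day 2 at 77 and 53.6 CPM in WT and 53.5 and 41.7 CPM in W330R (-2.29, SE 0.453, adjusted p = 0.02). Fabp4, the fatty acid carrier used as a marker of the induction, rose from 2.82 and 4.05 to 2113 and 1919 CPM in WT and from 4.49 and 4.28 to 1832 and 1419 CPM in W330R, with no call (-0.64, SE 0.73, adjusted p = 0.78). Adipoq, the adipokine adiponectin, had 0 and 1 reads in undifferentiated WT and 11 and 4 reads in undifferentiated W330R, and reached 37.7 and 47.1 CPM in WT and 15.6 and 31.1 CPM in W330R. With at most 1 read in undifferentiated WT no fold is given, and its call (adjusted p = 0.048) held in 1 of the 8 fits without a library. Rgcc, a regulator of the cell cycle, was low before induction, at 0.352 and 0.223 CPM in WT and 0.898 and 0.694 CPM in W330R, and rose to 87.5 and 123 CPM in WT and 35.8 and 45.5 CPM in W330R (-2.94, SE 0.542, adjusted p = 0.015). G0s2 was called in 2 and Rgcc in 6 of the fits without a library. Of 9 adipokines tested, Adipoq was the only one called, and the list had a median of -1.82, or -1.31 with low members at the floor of 3 reads, -0.49 without WT day 2 replicate 2 and -0.74 without W330R undifferentiated replicate 2.

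Cholesterol synthesis, which is shut down when sterols are plentiful, fell in both genotypes. Of 24 tested genes, 19 fell in WT and all 24 in W330R, with medians of -1.71 and -2.17 and a median difference of -0.80. That median was -0.21 without WT day 2 replicate 2 and -1.17 without WT day 2 replicate 1. In the difference, Lss, Msmo1 and Stard4 were called on the lower side. Msmo1, a sterol demethylase, was at 544 and 544 CPM in undifferentiated WT and 575 and 586 CPM in undifferentiated W330R, and on day 2 at 111 and 150.4 CPM in WT and 66.9 and 60.8 CPM in W330R (-1.13, SE 0.263, adjusted p = 0.043). Lss, lanosterol synthase, was at 123 and 176 CPM on day 2 in WT after 139.7 and 145 CPM and fell in W330R from 156 and 156 to 77.9 and 85.3 CPM (-1.01, SE 0.228, adjusted p = 0.038). Stard4, a sterol carrier, fell to 23 and 26.5 CPM in WT and 11.2 and 15.4 CPM in W330R (-1.41, SE 0.329, adjusted p = 0.043). These 3 calls each held in 1 of the 8 fits without a library, and DESeq2 called 8 members on the lower side.

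Among 24 genes of insulin and IGF signalling, the members called included Igfbp7 on the higher side and Tbc1d4 on the lower side. Tbc1d4, which controls the glucose transporter Slc2a4, rose to 148 and 183 CPM in WT and 135 and 143 CPM in W330R from 55.2 and 57.9 CPM in WT and 89.2 and 89.6 CPM in W330R (-0.91, SE 0.19, adjusted p = 0.026). Its genotypes were called apart before induction and not on day 2. Igfbp7, which binds IGF and insulin, fell in WT from 165 and 155 to 47.8 and 39.4 CPM and was at 69.98 and 76.9 CPM and then 47.5 and 68.3 CPM in W330R (1.53, SE 0.292, adjusted p = 0.017). These calls held in 1 (Tbc1d4) and 2 (Igfbp7) of the 8 fits without a library. Aoc3, an amine oxidase abundant on adipocytes, rose in WT from 10.1 and 11.1 to 42.7 and 55.5 CPM and fell in W330R from 56.1 and 54.1 to 28.1 and 34.7 CPM (-3.02, SE 0.419, adjusted p = 0.0026). Osgin2 went from 64 and 60.6 to 280 and 230.3 CPM in WT and from 195 and 201 to 146 and 150.2 CPM in W330R (-2.46, SE 0.3, adjusted p = 0.0017). Gm11870, which overlaps Osgin2, was called in the same direction (-3.71), and the reads of these neighbours cannot be told apart where strand was not used.

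The remaining genes named for the size of their difference have low counts or no clear place in these pathways. On the higher side, Ubp1 had 0 reads in both undifferentiated W330R libraries and 31 and 29 reads in undifferentiated WT, and was at 35.3 and 32 CPM and 35.2 and 29.7 CPM on day 2. Csrp2, a LIM-domain protein of smooth muscle, was at 5.11 and 1.51 CPM and then 6.8 and 3.69 CPM in WT. In W330R it rose from 0 and 0.463 to 11.7 and 12.2 CPM. Its genotypes were called apart before induction (-3.97 on the log2 scale) and not on day 2 (1.19). Npnt, a ligand of integrins, was at 2.55 and 1.6 CPM and then 3.1 and 0.935 CPM in WT. In W330R it rose from 0.735 and 0.231 to 19.7 and 15.2 CPM. The difference of responses was 5.17 (SE 1.095, adjusted p = 0.027) for Csrp2 and 5.13 (SE 1.132, adjusted p = 0.034) for Npnt. It was 4.22 (SE 0.911, adjusted p = 0.031) for Krt13 and 4.8 (SE 0.659, adjusted p = 0.0025) for Gm2115. With a library left out, the smallest values of Csrp2, Npnt, Krt13 and Gm2115 were 3.98, 4.47, 3.59 and 4.34. On the lower side, Gpm6b differed by -3.38 (SE 0.505, adjusted p = 0.004) and Ces2g by -3.05 (SE 0.667, adjusted p = 0.033). With a library left out, their values nearest to no difference were -2.86 and -2.35. Of the 271 genes, 24 had a condition with both libraries at or under 3 reads, and 239 had a mean of at least 1 on the log2 CPM scale.

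Genes of the cell cycle fell in both genotypes. Of 35 tested mitosis genes 35 fell in WT and 34 in W330R, and of 34 genes of DNA replication 33 fell in WT and 32 in W330R. In the difference of responses 0 members of either list were called by edgeR or DESeq2, with 2 mitosis genes and 5 replication genes at an unadjusted p under 0.05. The median difference was -0.44 for mitosis (-0.79 to -0.13 without 1 library, the extremes without WT day 2 replicates 2 and 1) and 0.11 for replication (0.02 to 0.21, without WT undifferentiated replicate 2 and W330R day 2 replicate 1). Mki67, the proliferation marker, fell from 387 and 396 to 8.91 and 4.48 CPM in WT and from 454 and 455 to 3.15 and 3.85 CPM in W330R. Top2a, another mitosis gene, fell in WT from 559 and 566 to 50.7 and 99.5 CPM. In W330R it was at 521 and 518 CPM and then 169 and 316 CPM, a response that was not called. Its difference of responses was not called either (1.8, SE 0.66, adjusted p = 0.21). Of the 35 mitosis genes, 5 had a difference above 0. Genes of fatty acid oxidation and the citric acid cycle rose together, 26 of 31 in each genotype, with 0 called for the difference by either tool and 5 at an unadjusted p under 0.05. Their median rise was 1.4 in WT and 0.96 in W330R on the log2 scale, and the median difference was -0.33, with 3 of 31 members above 0. The lists of ATF4 targets, chemokines, osteoblast and chondrocyte fate, germline genes and DNA methylation and polycomb factors also had 0 members called. Their members at an unadjusted p under 0.05 numbered 2 of 30, 2 of 23, 3 of 20, 0 of 10 and 2 of 22, and DESeq2 called 2, 0, 0, 0 and 1. Over all 14520 genes tested, 2075 had an unadjusted p under 0.05 and DESeq2 called 647.

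The median of the osteoblast and chondrocyte list (-1.26) changed sign when WT day 2 replicate 1 was left out (0.73), and was otherwise between -1.77 and -1.06. Col2a1, its main matrix gene, was at 446 and 32.1 CPM in the WT day 2 replicates.

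Interferon-stimulated genes had the highest median of the lists, 2.65, with 0 of 43 members called. At an unadjusted p under 0.05, 23 were higher and 0 lower, DESeq2 called 10 higher, and the fit of the 8 libraries alone called 8 higher. In sum, 45 genes of the list stood at 1312 and 1329 CPM in undifferentiated WT and 1324 and 1305 CPM in undifferentiated W330R. On day 2 the sums were 551.5 and 728.7 CPM in WT and 2563 and 1486 CPM in W330R. The replicates of W330R day 2 were thus apart: 37 of 43 members were higher in replicate 1 than in replicate 2. In replicate 2, 37 of 43 members exceeded both WT day 2 libraries. The same shares over all genes tested were not computed, so that neither count can be read as particular to this list. Without W330R day 2 replicate 1 the median was 1.88, and with the 10 members that had a condition at or under 3 reads set to that floor it was 1.98. In WT 10 members fell and 2 rose, and in W330R 12 rose and 1 fell. Macrophage markers summed to 11.5 and 15.5 CPM in W330R day 2 and to 13.8 and 14.5 CPM in WT day 2.

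Outside that list, several called genes belong to interferon-inducible families. Trim30a, an interferon-induced ubiquitin ligase family member, had 0 and 5 reads on day 2 in WT after 4.4 and 3.12 CPM, and rose in W330R from 3.1 and 2.89 to 34.2 and 9.94 CPM (7.5, SE 1.79, adjusted p = 0.049). Ifi202b, of the DNA-sensing p200 family, fell in WT from 35.7 and 38.6 to 0.982 and 0.984 CPM and was at 17.2 and 17.1 CPM and then 14.4 and 6.09 CPM in W330R (4.48, SE 0.94, adjusted p = 0.026). Gm4070, a member of the very large inducible GTPases, fell to 0.378 and 0.246 CPM in WT and 10.7 and 3.65 CPM in W330R (5.41, SE 1.18, adjusted p = 0.033), and it shares 97.8% of its sequences of 50 bases with Gvin1 and other genes, so that the count may belong to a copy. Each of these 3 calls held in 1 of the 8 fits without a library. B2m, the light chain of class I histocompatibility proteins, was the member of the list with the most reads and fell in WT from 715 and 722 to 209 and 326 CPM, beside 685 and 683 CPM and then 749 and 557 CPM in W330R, with no call (1.36, SE 0.529, adjusted p = 0.24).

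**Figure D4:**
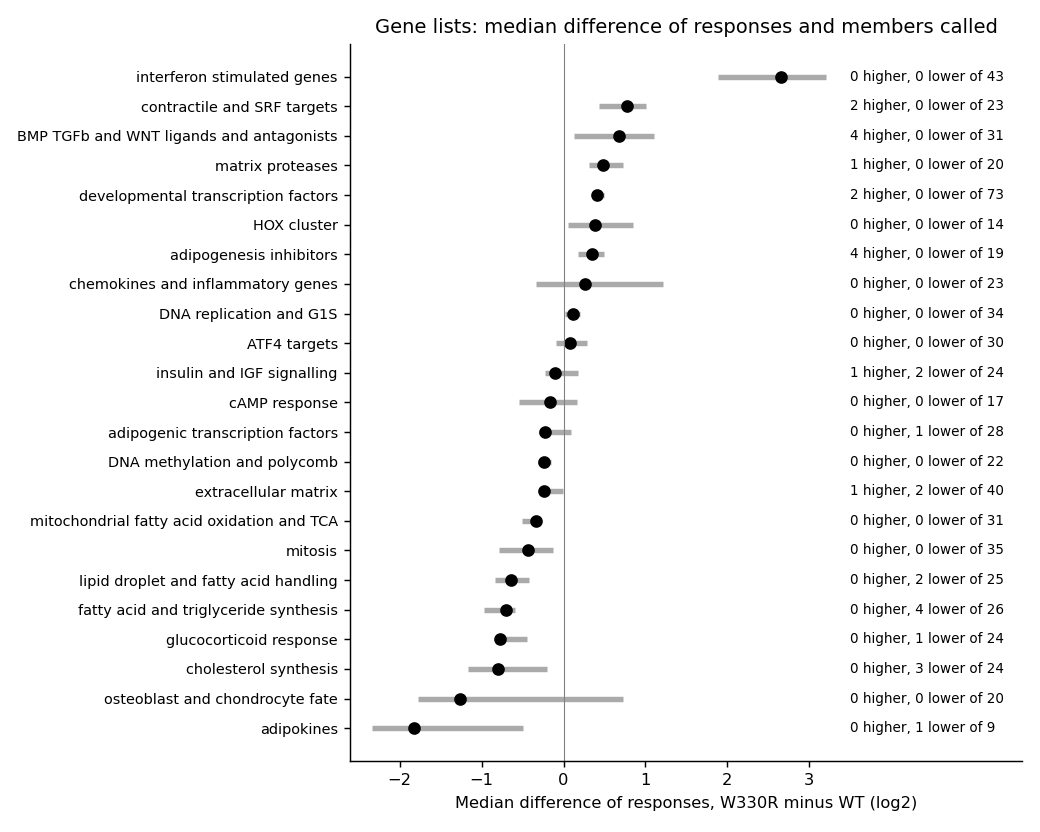
Median difference of responses (W330R minus WT, log2) of each gene list, as black points, with grey bars from the lowest to the highest median when each of the 8 libraries is left out in turn, and the number of members called at the right. Interferon-stimulated genes lie furthest to the right at 2.65 with 0 members called, and fatty acid and triglyceride synthesis has 4 members called lower at a median of -0.71.

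Promoters are shown for genes whose responses differed, because the enzyme under study acts on CpG sites, and the first pair also because one of the searched motifs was found there. They are the 250 bases before a transcription start of RefSeq on build GRCm38.p6, written in the sense of the gene. Methylation was not measured here. Searched on both strands were the glucocorticoid receptor element (GNACA and TGTNC with 3 bases between), the interferon-stimulated response element (GAAA and GAAA with 2 bases between), the cAMP response element (TGACGTCA) and the PPAR direct repeat (AGGTCA and AGGTCA with 1 base between), and matches of different motifs overlapped in 0 of the windows. In the windows of all 32851 starts of the table, they occurred in 0.387%, 2.98%, 1.55% and 0.0335%. In Fam107a and Trim30a capitals mark the match, and the window shown is the start of 3 and of 2 that holds it.
Fam107a (chr14:8309780-8310029, minus strand): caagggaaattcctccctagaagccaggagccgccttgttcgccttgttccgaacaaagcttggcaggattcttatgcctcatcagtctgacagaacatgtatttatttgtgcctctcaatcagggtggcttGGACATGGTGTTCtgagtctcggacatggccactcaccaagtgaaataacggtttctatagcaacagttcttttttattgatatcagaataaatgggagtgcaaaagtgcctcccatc
Trim30a (chr7:104465194-104465443, minus strand): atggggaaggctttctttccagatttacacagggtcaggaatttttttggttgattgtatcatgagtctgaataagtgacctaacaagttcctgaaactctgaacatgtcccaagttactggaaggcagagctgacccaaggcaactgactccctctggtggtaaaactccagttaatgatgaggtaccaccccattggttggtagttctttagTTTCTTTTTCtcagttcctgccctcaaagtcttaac

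The Fam107a match is to the glucocorticoid receptor element and begins 118 bases before the start, in the gene that rose in both genotypes. The match of Trim30a is to the interferon-stimulated response element, read on the opposite strand, and begins 36 bases before the start. A match is a description of the letters and shows no binding. None of the 4 motifs occurred in the windows of Adipoq, Bmp4, Grem1 and Rgcc, where capitals mark CpG.
Adipoq (chr16:23146286-23146535, plus strand): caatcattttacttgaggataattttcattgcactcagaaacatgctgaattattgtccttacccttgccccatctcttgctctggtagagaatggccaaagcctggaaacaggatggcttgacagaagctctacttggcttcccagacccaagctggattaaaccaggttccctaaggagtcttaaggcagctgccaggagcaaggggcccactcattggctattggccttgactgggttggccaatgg
Bmp4 (chr14:46390670-46390919, minus strand): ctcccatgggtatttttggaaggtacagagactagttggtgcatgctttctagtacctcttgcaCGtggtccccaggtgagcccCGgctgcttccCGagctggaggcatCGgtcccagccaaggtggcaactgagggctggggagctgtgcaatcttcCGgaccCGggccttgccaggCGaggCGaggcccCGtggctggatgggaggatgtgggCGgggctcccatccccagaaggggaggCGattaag
Grem1 (chr2:113758649-113758898, minus strand): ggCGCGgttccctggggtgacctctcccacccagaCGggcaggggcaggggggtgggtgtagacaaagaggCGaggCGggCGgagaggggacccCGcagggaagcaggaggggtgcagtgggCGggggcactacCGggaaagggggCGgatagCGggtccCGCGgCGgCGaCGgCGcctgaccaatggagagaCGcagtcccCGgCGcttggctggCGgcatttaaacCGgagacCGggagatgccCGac
Rgcc (chr14:79301636-79301885, minus strand): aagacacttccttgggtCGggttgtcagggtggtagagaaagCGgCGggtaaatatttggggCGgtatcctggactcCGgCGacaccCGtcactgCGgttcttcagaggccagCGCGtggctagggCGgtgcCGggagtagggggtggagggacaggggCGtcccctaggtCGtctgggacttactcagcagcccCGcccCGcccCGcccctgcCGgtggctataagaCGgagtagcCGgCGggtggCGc

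These windows hold 0, 11, 24 and 22 CpG, and the Trim30a window holds 0, beside a median of 6 in all windows of the table (quartiles 2 and 16). Of the genes tested, 74.97% had a window, and of the 271 genes 75.28%. CpG content was not compared between gene classes.

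The libraries of days 4 and 6 enter the test of responses only through the shared spread, and their genotype differences are given beside those of day 2. On day 4 W330R and WT differed for 891 genes (6.14%), 397 higher (2.73%) and 494 lower (3.4%) in W330R, and on day 6 for 1095 genes (7.54%), 336 higher (2.31%) and 759 lower (5.23%). Of the 119 genes called between genotypes on day 2 only, 118 had the same sign on day 4 and 112 on day 6, with 90 and 58 of them called. The median absolute difference of the 119 genes went from 1.35 on day 2 to 1.10 and 0.81. The share with the same sign over all genes tested was 74.5% and 70.7%. Of all 445 genes called between genotypes on day 2, 432 had the same sign on day 4 and 414 on day 6, so that keeping the sign is not particular to this class. Of the 83 genes called between genotypes before induction only, 67 and 65 kept the small difference of day 2 in sign, with 16 called on each day. All genes called in any class on days 4 or 6 had the sign of day 2.

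**Figure D5:**
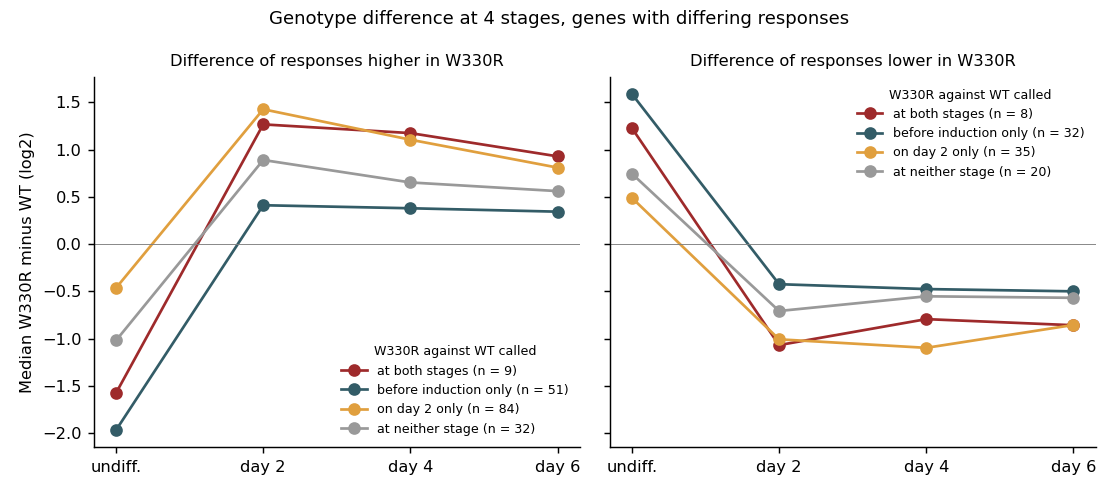
Median W330R minus WT (log2) of the genes with differing responses at 4 stages, for genes on the higher side (left, n = 176) and on the lower side (right, n = 95), with 1 line per class of stage at which the genotypes were called apart. The 84 genes called on day 2 only on the higher side go from -0.46 to 1.43 and stay above 0 to day 6, and the 51 genes called before induction only go from -1.97 to 0.41.

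The later levels of single genes followed this. Itga6 was at 149 and 133 CPM in WT and 53.1 and 51.1 CPM in W330R on day 4, and at 111 and 87.8 and 40.1 and 35.9 CPM on day 6, with the genotypes apart on both days. Npr3 was at 16.8 and 20.7 CPM against 129 and 67.1 CPM on day 4, and Trim30a at 1.16 and 1.08 CPM against 64.1 and 18.4 CPM. Scd1 was at 5129 and 9004 CPM in WT and 1036 and 1117 CPM in W330R on day 6 (-2.71 on the log2 scale, called). Fam107a was down to 147 and 169.9 CPM in WT and 203 and 149.8 CPM in W330R by then, with no call between genotypes. Its undifferentiated levels had been 10.6 and 9.26 CPM in WT and 112 and 116 CPM in W330R. Among the lists, fatty acid and triglyceride synthesis had 11 of 26 members lower and 0 higher on day 4, and 14 lower and 0 higher on day 6, with medians of -1.11 and -1.67. Fatty acid oxidation and the citric acid cycle, with 0 members called for the responses, had 18 and 23 of 31 members lower and 0 higher, with medians of -0.85 and -1.09. Cholesterol synthesis had 9 and 13 of 24 members lower and 0 higher, with medians of -0.68 and -0.91. Interferon-stimulated genes had 9 and 2 of 43 members higher and 0 lower, with medians of 2.41 and 1.41.

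The double mutant W330R-R181E has no undifferentiated libraries here, so that its response could not be tested, and its day 2 levels are given beside those above. The columns of its 6 libraries are headed R181A where the labels say R181E, so that which substitution they carry is not settled here. Itga6 was at 168 and 118 CPM, Abcg2 at 26.4 and 27.9 CPM and Zfp57 at 8.37 and 8.22 CPM. Npr3 was at 11.2 and 8.57 CPM, Npy1r at 0.985 and 0.248 CPM and Trim30a at 0.246 and 0.347 CPM. Scd1 was at 1353 and 2713 CPM and Acsl1 at 1759 and 1328 CPM. For Abcg2, Npr3, Zfp57 and Trim30a these values lay outside the W330R libraries of day 2 and nearer to WT, whereas those of Scd1 and Acsl1 lay above both W330R libraries and below both WT libraries. Aoc3 was at 27.3 and 33.4 CPM on day 2, near W330R (28.1 and 34.7 CPM) and below both WT libraries. On day 6 the replicates of the double mutant were apart for Trim30a, at 40.7 and 1.625 CPM. The genes given here are only a part of those named above. No test of these differences was made here.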

How the data were processed

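RNA-seq libraries from total RNA of C3H 10T1/2 cells were grouped by their labels. The authors deposited whole read counts per gene symbol, without normalization. The submitters' processing notes name kallisto, DESeq2 1.40 and the GRCm39 build without saying which step used them, and the strand setting is not given in the sources used here. From these counts, 14520 of 30170 genes were kept with filterByExpr of edgeR 4.0.16 (R 4.3.3; minimum count 10, minimum total 15), library sizes were scaled by TMM, and 1 quasi-likelihood model with 1 mean per condition was fitted to all 22 libraries. The undifferentiated and day 2 libraries thus shared the estimate of the spread with the later days. The test was (W330R day 2 minus W330R undifferentiated) minus (WT day 2 minus WT undifferentiated), two-sided, and a gene counted as called when its p, adjusted after Benjamini-Hochberg, was under 0.05. The SE of a log2 difference was derived as its absolute value over the root of the F statistic, and CPM were computed from the TMM-scaled totals.

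The members and gene lists were chosen with earlier results of these data known, so that lists are described by counts and medians without a test. Genes were named by rule: the DNA methyltransferases, the 12 largest differences in each direction among called genes whose mean log2 CPM reached 1 and whose changes do not overlap, up to 4 called members per list (or the 2 with the most reads where none was called), the 4 lowest p-values per class, and 7 markers of the induction. One gene that this rule names is not reported here. Values were left as CPM or reads where both libraries of a condition had at most 3 reads. In simulated counts for 14520 genes with an equal spread at all stages, the fit recovered 9.2%, 62.1% and 79.7% of differences of 1, 2 and 3 on the log2 scale, and 2.86% of its 105 calls were false. The floor of 3 reads covers counting error only, whereas the SE carries the spread between libraries. PCR copies are not independent molecules. The alternatives were DESeq2 1.42.0, RLE scaling, no filter, a fit of the libraries in the contrast alone, replicate blocks, thinned counts, removal of the 20 genes with the most counts, a minimum difference, and leaving out each library. Sequences shared between genes were counted in windows of 50 bases on GENCODE transcripts: 14 of the 271 genes shared over 20% with other genes, and 146 overlap another annotated gene. Promoters came from RefSeq on GRCm38.p6, matched by symbol or synonym to 10886 of the 14520 genes.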

Additional observations from a re-analysis of the deposited data

Results flagged for a closer look

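The response to induction was tested for a difference between the genotypes directly, and 271 genes passed that test. Of these, 38 were called in opposite directions, rising in one genotype and falling in the other. They include Pmepa1, Nxn, Npr3, Npy1r and Prrx2, which fell in WT and rose in W330R, and Pag1, Itga6, Aoc3 and Hey2, which rose in WT and fell in W330R. With 2 libraries per condition no test for single deviating libraries was run.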

How the results depend on the processing

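No called difference of responses changed sign in a named gene under any alternative run. Among uncalled genes, Pparg (0.017) was at -0.014 with DESeq2 and with RLE scaling, and in thinned counts Cd14 went from 0.131 to -0.192 and Cdh1 from -0.291 to 0.734. Without 1 library the uncalled genes that changed sign ranged from -0.355 to 0.542 (Pparg), -0.496 to 0.172 (Fkbp5), -2.514 to 1.271 (Col2a1), -1.171 to 0.26 (Sox9), -0.056 to 1.536 (Ifi27), -0.969 to 0.019 (Atf5), -0.312 to 0.16 (Atf4), -0.343 to 0.021 (Cs), -0.025 to 0.423 (Junb), -0.116 to 0.346 (Hoxa7), -0.261 to 0.829 (Hoxa3), -0.071 to 1.824 (Dpep1), -0.862 to 0.703 (Cd14), -1.469 to 4.188 (Cdh1) and -1.405 to 4.358 (Tnnt3). The 271 calls became 647 with DESeq2 (369 higher and 278 lower), 161 with all libraries thinned to the smallest total (86 and 75, beside 176 and 95), and 75 to 263 when 1 library was left out. They were 263 with RLE scaling, 349 without a filter, 338 in the fit of the 8 libraries alone (which called 179 of the 271, 66.05%, again in the same direction), 266 without the 20 genes with the most counts and 240 with a difference of at least 1. DESeq2 called 501 genes before induction, 1029 on day 2, 1636 on day 4 and 1730 on day 6, beside 254, 445, 891 and 1095. With only the 4 libraries of a stage these counts were 4194, 0, 0 and 57, and without 1 library they ranged from 48 to 58, 36 to 375, 42 to 1034 and 134 to 1476. The replicates of undifferentiated cells lie much closer together than those of the later days, and a shared spread does not show this. The cause of the other shifts was not tested. The 29 list members called became 65 with DESeq2, 51 without a filter, 51 in the fit of the 8 libraries and 6 to 35 without 1 library. Cebpa, not called in the report, passed with DESeq2 (-1.75) and without WT day 2 replicate 1 (-2.06). Depth limits genes near 3 reads, and differences of 1 on the log2 scale were mostly missed in simulated counts.

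Replicate numbers are shared by the groups, but the labels do not say what a number marks. The correlation of deviations of same-numbered libraries was 0.03 between the undifferentiated genotypes and 0.26 between the day 2 genotypes. Between undifferentiated and day 2 libraries it was -0.04 to 0.01, and days 4 and 6 were not part of this check. C3 was higher in replicate 2 than in replicate 1 in every condition of days 2 to 6. In WT it was at 1337 and 4015 CPM on day 2 and 1480 and 3228 CPM on day 4. The main fit did not take the numbers as pairs, and whether they mark pairs on days 2 to 6 is not settled here. With the replicate block the interaction gave 510 calls, and the genotype differences gave 392, 909, 1848 and 1757 at the 4 stages, with 55 list members. With the replicate block within stage the counts were 784, then 542, 1355, 2408 and 2368, with 76 list members.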
